A study of Homo sapiens with 12 samples.

Results

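Iron handling in hepatocellular carcinoma cells was followed through the mRNA levels of 10 genes of iron import, ferritin, ferritin turnover, iron export, iron sensing and heme breakdown, *TFRC*, *STEAP3*, *SLC11A2*, *FTH1*, *FTL*, *NCOA4*, *SLC40A1*, *IREB2*, *ACO1* and *HMOX1*. The members were chosen by name, with earlier results of these data known, and matched by symbol to Entrez identifiers. All 10 were found among the 26258 identifiers of the deposited table. The cells were HLE, a hepatocellular carcinoma line in culture, depleted of the transcriptional coactivators YAP and TAZ together (siY/T) or of the stress-response transcription factor ATF4 (siATF4), or given a control siRNA (siCtrl). Cells given each siRNA received either DMSO, the vehicle, or Sorafenib (Srf), a multikinase inhibitor at 5 µM per the labels, which name no time. This gave 6 groups with 2 libraries each, so n = 2 in every group. The study's methods call the RNA samples biological replicates, but the labels do not say whether the libraries of a group came from separate cultures. The P values therefore measure the spread between libraries of the same group, which may be technical. It was estimated for each gene over all 6 groups together. Levels are given as CPM, the reads of a gene scaled to a library of 1000000 reads on genes.

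Iron enters most cells on transferrin bound to the transferrin receptor, is reduced in the endosome and crosses into the cytosol, where ferritin stores what is not used and ferroportin exports it. The iron regulatory proteins sense cytosolic iron and bind a hairpin, the iron responsive element, in mRNAs of these genes. In the 5′ untranslated region the bound hairpin blocks translation, and in the 3′ untranslated region of the transferrin receptor mRNA it protects the message from decay. Labile iron feeds the lipid peroxidation of ferroptosis, the form of cell death that the study addressed in Sorafenib-treated liver cancer cells.

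The iron responsive elements found in the members are shown because they lie in different untranslated regions. A hairpin was searched as a C, 5 bases, the loop CAGTGN and 5 bases pairing with the first 5 by Watson-Crick or G-T pairs, in the coding transcripts of the members in GENCODE on GRCh37. *TFRC* held 4 matches in its 3′ untranslated region, and *FTH1*, *FTL* and *SLC40A1* held 1 each in the 5′ untranslated region. The site of *SLC40A1* was in 1 of its 5 coding transcripts. No match was found in the other members, which says only that these letters are not in those transcripts. An element with other letters or an unpaired base in this stem would be missed. Among 19553 canonical coding transcripts, 0.0921% held a match in the 5′ untranslated region and 0.619% in the 3′ untranslated region, and *TFRC* was the 1 transcript with at least 3 matches. Each site is printed 5′ to 3′ with 6 bases on either side of the hairpin and the loop in capitals.
TFRC site 1: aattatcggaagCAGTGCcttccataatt
TFRC site 2: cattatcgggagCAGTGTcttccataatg
TFRC site 3: ctgtatcggagaCAGTGAtctccatatgt
TFRC site 4: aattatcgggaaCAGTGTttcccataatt
FTH1: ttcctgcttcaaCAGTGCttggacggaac
FTL: ctcttgcttcaaCAGTGTttggacggaac
SLC40A1: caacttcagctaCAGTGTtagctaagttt
In this order the sites of *TFRC* lie on the minus strand at chr3:195777850-195777878, chr3:195777446-195777474, chr3:195777381-195777409 and chr3:195777334-195777362 of GRCh37. That of *FTH1* lies at chr11:61735046-61735074 on the minus strand, that of *FTL* at chr19:49468592-49468620 on the plus strand and that of *SLC40A1* at chr2:190445387-190445415 on the minus strand. The sites of the ferritin subunits shared 26 of their 29 bases, those of *TFRC* shared 18 to 25 bases with each other, and that of *SLC40A1* shared 13 to 16 bases with the other sites.

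The libraries held 41408348 to 53619732 reads on genes, which makes a single read worth 0.0187 to 0.0242 CPM. Each siRNA target was lowest in the libraries labelled for it, with *YAP1* at 46.6 to 57.7 CPM in the siY/T and at 236 to 279.9 CPM in the other libraries, *WWTR1*, the gene of TAZ, at 49.3 to 68.6 and at 104 to 173 CPM, and *ATF4* at 84.5 to 101 CPM in the siATF4 and at 197 to 492 CPM in the other libraries. Each depletion also went with less mRNA of a target of the other, *WWTR1* at -0.70 with siATF4 in DMSO (limma adjusted p = 1.29e-05) and *ATF4* at -0.63 with siY/T in Sorafenib (limma adjusted p = 1.84e-07). In the other medium *WWTR1* was at -0.091 with siATF4 (limma adjusted p = 0.369) and *ATF4* at -0.30 with siY/T (limma adjusted p = 6.95e-05). Of 8 hepatocyte markers, 6 stayed under 1 CPM in every library, with *ALB* and *HNF4A* at no more than 0.0214 CPM, and *FGB* was at 64.4 to 431 CPM. Nearly all of the summed level of the 8 was *FGB*, since *SERPINA1*, the next highest, was at no more than 2.32 CPM. The sum was 368 to 431 CPM in siCtrl DMSO and 174 to 177 CPM in siCtrl Srf cells. It was 68.6 to 72.3 CPM in siATF4 DMSO and 64.6 to 65.6 CPM in siATF4 Srf cells. In siY/T cells it lay below the siCtrl range in DMSO and above it in Sorafenib. The sum thus follows 1 gene and not a set of hepatocyte markers, and its part in the siATF4 differences was not tested. The iron genes that hepatocytes secrete or use for systemic sensing, *TF*, *HAMP*, *CP*, *HP* and *TFR2*, were under 1 CPM throughout as well. The summed level of 4 epithelial markers was 978 to 1020 CPM in siY/T DMSO against 3220 to 3330 CPM in siCtrl DMSO cells, and its part in the iron genes was not tested. The libraries of siY/T DMSO cells stood farthest apart, with a chi-square per gene of 20.7 against 2.98 to 8.3 in the other groups. The spread behind the P values is shared by all groups, so it may be too small for comparisons with siY/T DMSO. In bulk RNA, fewer cells that express a gene and less RNA per cell cannot be told apart.

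**Figure D1:**
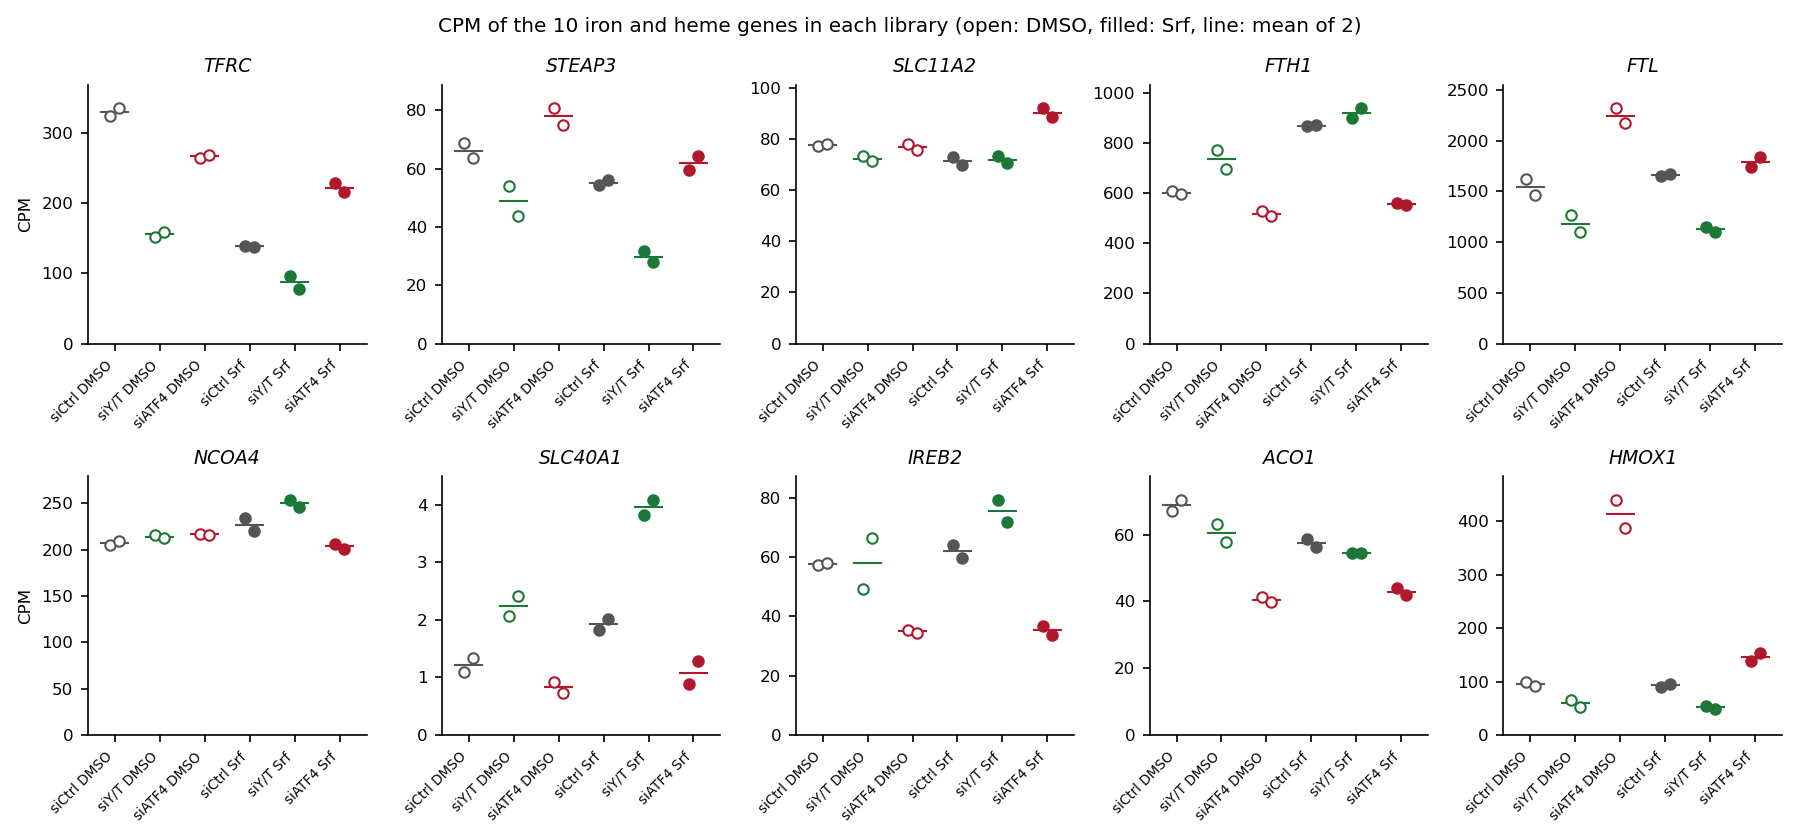
Level of each of the 10 genes in CPM (y axis, from 0) in each library of the 6 groups (x axis), with open points for DMSO, filled points for Srf and a line at the mean of the 2 libraries. TFRC is highest in siCtrl DMSO cells at 324 and 336 CPM and lowest in siY/T Srf cells at 95.9 and 78.4 CPM, and HMOX1 stands apart in siATF4 DMSO cells at 440.3 and 387 CPM.

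The levels of the members were ranked against each other per kilobase of the canonical transcript, in siCtrl DMSO cells. Ferritin was the most abundant, with *FTL* at 1770 and *FTH1* at 500.0 CPM per kilobase. *TFRC*, *HMOX1* and *NCOA4* followed at 65.9, 61.4 and 59.9 CPM per kilobase, then *SLC11A2* at 18.8 and *STEAP3* at 15.5. The iron regulatory proteins stood close to each other, *ACO1* at 9.25 and *IREB2* at 9.12 CPM per kilobase, and ferroportin was far below the rest at 0.365. Storage mRNAs thus led this scale and the export mRNA closed it.

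The comparisons asked whether the loss of YAP/TAZ, the loss of ATF4 or Sorafenib moved these genes, and whether a loss moved them differently with Sorafenib. A gene was called raised or lowered at an unadjusted limma P under 0.05 and an absolute difference of at least 0.58 on the log2(CPM + 0.5) scale, over the 13515 genes that reached 1 CPM in 2 libraries or more. All 10 members passed that filter. A difference between effects (an interaction) was called at a Benjamini-Hochberg adjusted P under 0.05. The differences named below are on this log2 scale, and comparisons with a group of siCtrl cells share its libraries.

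*TFRC*, the transferrin receptor and the main port of iron entry, was called in 3 of the 4 comparisons of a depletion with siCtrl and in 2 of the 3 comparisons of Sorafenib with DMSO. Its gene (Entrez 7037) spans 195739382 to 195809024 of chromosome 3 in GRCh37. In DMSO it stood at 324 and 336 CPM in siCtrl, at 152 and 159.7 CPM in siY/T and at 265 and 269 CPM in siATF4 cells. With Sorafenib it stood at 139 and 138 CPM in siCtrl, at 95.9 and 78.4 CPM in siY/T and at 229 and 216 CPM in siATF4 cells. From high to low the groups were siCtrl DMSO, siATF4 DMSO, siATF4 Srf, siY/T DMSO, siCtrl Srf and siY/T Srf, and no neighbours in this order overlapped. The siATF4 cells with Sorafenib were the only Sorafenib group above all siY/T DMSO libraries.

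Sorafenib lowered *TFRC* in siCtrl cells, with a log2 difference of -1.25 (SE 0.0711, 95% interval -1.40 to -1.10, limma adjusted p = 1.86e-08), and in siY/T cells, with -0.84 (limma adjusted p = 9.47e-07). In siATF4 cells the same difference was -0.26 (95% interval -0.42 to -0.11, limma adjusted p = 0.00796), under the fold threshold. The loss of YAP/TAZ lowered *TFRC* in DMSO, with -1.08 (limma adjusted p = 6.40e-08), and in Sorafenib, with -0.67 (limma adjusted p = 6.26e-06). The call in Sorafenib rested on 1 library, since the difference was -0.53 without replicate 2 of siY/T Srf. The effects of siY/T in Sorafenib and in DMSO differed by 0.41 (SE 0.1, limma interaction, adjusted p = 0.0127), which was 0.38 and no longer called without replicate 2 of siCtrl DMSO.

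The loss of ATF4 went with *TFRC* differences of opposite sign in DMSO and in Sorafenib. In DMSO the difference from siCtrl was -0.30 (limma adjusted p = 0.00195), under the fold threshold, at 0.809 times the control level. In Sorafenib *TFRC* rose to 1.61 times the control level, a difference of 0.68 (SE 0.0711, limma adjusted p = 1.45e-06). The effects differed by 0.99 (95% interval 0.77 to 1.20, limma interaction, adjusted p = 1.22e-05), and this call was kept in all 23 alternatives computed.

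The promoter of *TFRC* is shown because the gene moved with each perturbation. It covers the 250 bases before the transcription start of the RefSeq gene on GRCh38.p14, chr3:196082091-196082340 on the minus strand, with the single match to the core of a hypoxia response element, ACGTG, in capitals.
TFRC promoter: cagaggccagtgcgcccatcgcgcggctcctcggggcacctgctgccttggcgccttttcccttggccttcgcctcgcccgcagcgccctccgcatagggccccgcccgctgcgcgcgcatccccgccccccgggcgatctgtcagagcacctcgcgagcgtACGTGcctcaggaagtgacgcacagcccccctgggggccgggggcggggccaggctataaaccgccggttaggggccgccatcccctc
The match starts 88 bases before the transcription start, and the letters occur on either strand in 18.5% of 35116 promoters of this length. RefSeq promoters were matched for 8 of the members, 13 promoters in all, and those of *FTH1* and *HMOX1* were not analysed here. No member promoter held GGAATG, a core bound by the TEAD partners of YAP/TAZ, which 11.9% of all promoters held, or TGATGNAA, a form of the element bound by ATF4, which 3.14% held. The antioxidant response core TGANNNNGC, in 35.2% of all promoters, was found for *SLC11A2* and the AP-1 core TGANTCA, in 6.57%, for *SLC11A2* and *NCOA4*, and that of the hypoxia element was also found for *FTL*. A match is a description of letters and not a site.

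*STEAP3*, the endosomal ferrireductase that reduces iron released from transferrin, fell with the loss of YAP/TAZ under Sorafenib. It stood at 68.7 and 63.5 CPM in siCtrl, at 53.9 and 43.8 CPM in siY/T and at 80.8 and 75 CPM in siATF4 cells in DMSO. With Sorafenib the levels were 54.3 and 56.1 CPM, 31.8 and 27.9 CPM, and 59.5 and 64.4 CPM in the same order. The siY/T Srf libraries lay below all others, and those of siCtrl DMSO and siATF4 Srf overlapped. The loss of YAP/TAZ gave a difference of -0.88 in Sorafenib (SE 0.0893, limma adjusted p = 4.48e-06). In DMSO the difference was -0.44 (limma adjusted p = 9.06e-04), short of the fold threshold. It was -0.59 and a call without replicate 1 of siY/T DMSO and -0.29 without replicate 2.

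Sorafenib lowered *STEAP3* in siY/T cells by a difference of -0.70 (limma adjusted p = 3.41e-05), which was -0.55 and not called without replicate 1 of siY/T DMSO. The Sorafenib difference was -0.26 in siCtrl and -0.33 in siATF4 cells, neither of them called. The effects of siY/T in Sorafenib and in DMSO differed by -0.44 (limma interaction, adjusted p = 0.0265). That call was kept in 16 of 23 alternatives and lost without replicate 2 of siCtrl DMSO, replicate 1 or 2 of siCtrl Srf, or replicate 2 of siY/T Srf, with differences of -0.38, -0.46, -0.42 and -0.35. The loss of ATF4 gave *STEAP3* differences of 0.24 in DMSO and 0.17 in Sorafenib, neither of them called.

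*SLC11A2*, the divalent metal transporter DMT1 that passes iron out of the endosome, ranged only from 69.7 to 92.1 CPM and was called in none of the 7 comparisons with siCtrl or DMSO. Its lowest library was siCtrl Srf replicate 2 and its highest siATF4 Srf replicate 1. The siATF4 Srf libraries, at 92.1 and 88.5 CPM, lay above the other 10. The difference of siATF4 from siCtrl was -0.019 in DMSO and 0.34 in Sorafenib (limma adjusted p = 1.60e-05), the latter under the fold threshold. These effects differed by 0.36 (SE 0.0642, limma interaction, adjusted p = 7.82e-04).

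**Figure D2:**
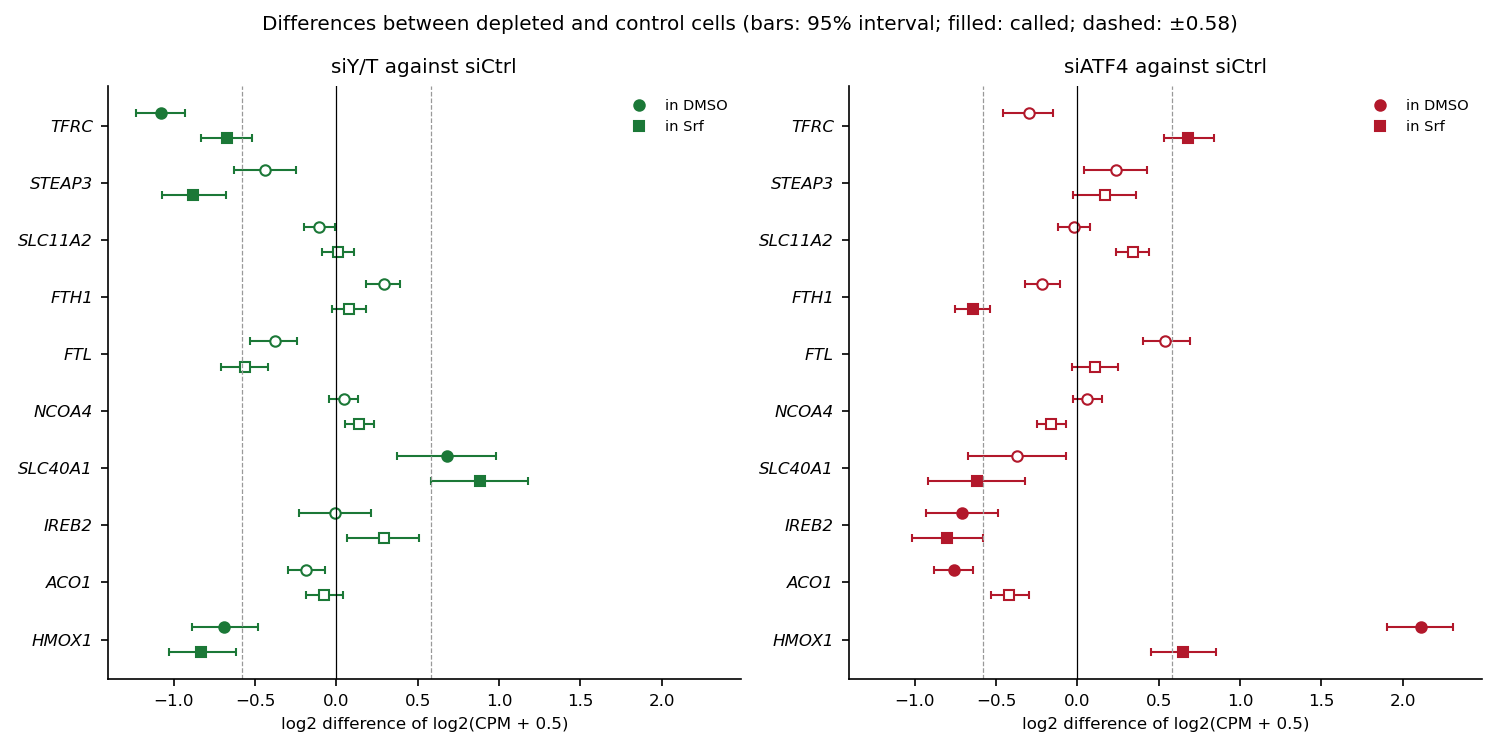
Log2 difference of each gene between depleted and siCtrl cells (x axis) for siY/T (left) and siATF4 (right), in DMSO (circles) and in Srf (squares). Bars are 95% intervals, filled points are calls and dashed lines mark ±0.58. HMOX1 lies at -0.69 and -0.83 with siY/T and at 2.11 and 0.65 with siATF4, and TFRC at -1.08 and -0.67 with siY/T and at -0.30 and 0.68 with siATF4.

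The ferritin subunits differed in the groups where they were highest, *FTH1* in siY/T Srf and *FTL* in siATF4 DMSO cells. *FTH1*, the heavy chain, oxidises iron for storage and lies on chromosome 11 from 61727190 to 61735106. In DMSO it stood at 607 and 597 CPM in siCtrl, at 773 and 696 CPM in siY/T and at 528 and 507 CPM in siATF4 cells. With Sorafenib it stood at 869 and 869.7 CPM in siCtrl, at 898 and 939 CPM in siY/T and at 560.1 and 551 CPM in siATF4 cells. The siATF4 libraries were the lowest with and without Sorafenib, and no neighbouring groups overlapped. *FTH1* was lowered by the loss of ATF4 in Sorafenib, with a difference of -0.64 (SE 0.0489, limma adjusted p = 6.82e-08), and in DMSO the difference was -0.22 (limma adjusted p = 0.00146), not a call. Sorafenib itself gave *FTH1* differences of 0.53 in siCtrl (limma adjusted p = 9.69e-07), 0.32 in siY/T and 0.10 in siATF4 cells, each under the fold threshold. The effects of siATF4 in Sorafenib and in DMSO differed by -0.43 (limma interaction, adjusted p = 3.69e-04). Those of siY/T, 0.079 and 0.29, differed by -0.21 (limma interaction, adjusted p = 0.0478), a call kept in only 5 of 23 alternatives, and lost in 11 of the 12 that leave out 1 library.

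*FTL*, the light chain that helps iron to mineralise in the ferritin shell, lies on chromosome 19 from 49468566 to 49470136. In DMSO it stood at 1620 and 1463 CPM in siCtrl, at 1264 and 1102 CPM in siY/T and at 2322 and 2171 CPM in siATF4 cells. With Sorafenib it stood at 1652 and 1674 CPM, 1150 and 1100 CPM, and 1744 and 1840 CPM in the same order. The siY/T libraries were the lowest of the 12 and overlapped each other across media, and the siATF4 DMSO libraries were the highest. No comparison of *FTL* with siCtrl or DMSO was called, although siY/T against siCtrl in Sorafenib gave -0.56 (95% interval -0.71 to -0.42, limma adjusted p = 1.56e-05) and siATF4 against siCtrl in DMSO gave 0.54 (limma adjusted p = 8.35e-06). The first passed the fold threshold at -0.62 after TMM scaling and in edgeR and DESeq2 on recovered reads, and at -0.60 without replicate 1 of siY/T Srf. The second passed it at 0.62 without replicate 1 of siCtrl DMSO and at 0.59 without replicate 2 of siATF4 DMSO. The effects of siATF4 on *FTL* in Sorafenib, 0.11, and in DMSO differed by -0.44 (limma interaction, adjusted p = 0.00255).

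The ratio of *FTL* to *FTH1* CPM, a description with no test and not scaled to transcript length, ordered the groups by depletion. In DMSO it was 2.67 and 2.45 in siCtrl, 1.63 and 1.58 in siY/T and 4.4 and 4.29 in siATF4 libraries. With Sorafenib it was 1.9 and 1.92, 1.28 and 1.17, and 3.11 and 3.34 in the same order. In each medium siY/T lay below and siATF4 above siCtrl without overlap, and each transfection had a lower ratio with Sorafenib than with DMSO. The sum of both subunits moved less, from 1798 to 2850 CPM over the 12 libraries.

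**Figure D3:**
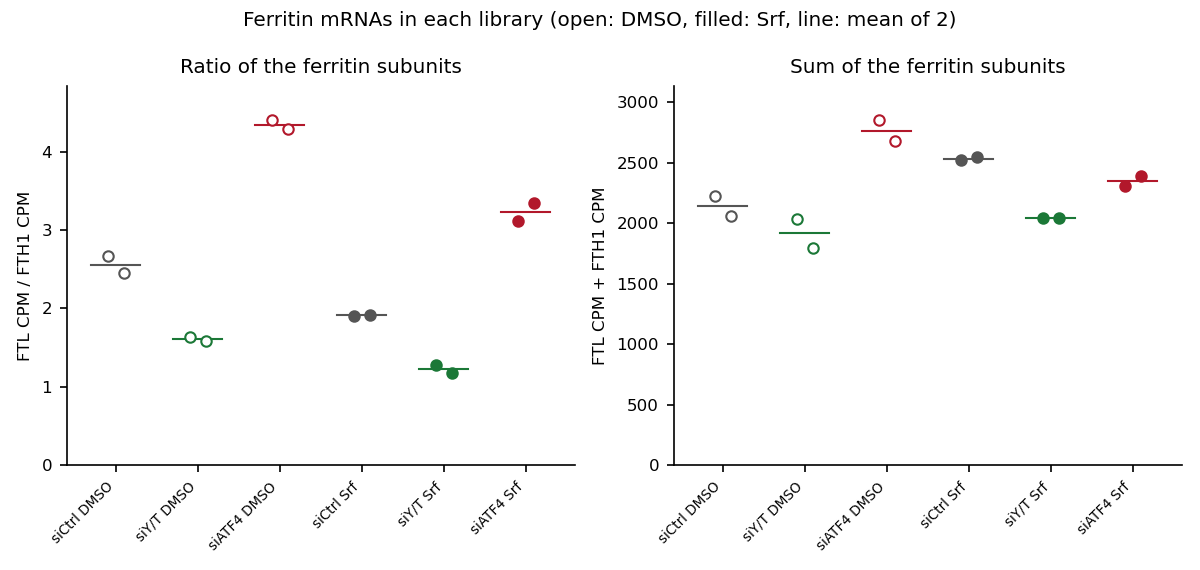
Ratio of FTL to FTH1 CPM (left) and their sum in CPM (right) in each library, with open points for DMSO, filled points for Srf and a line at the mean of the 2 libraries. The ratio runs from 1.17 in a siY/T Srf library to 4.4 in a siATF4 DMSO library, and the sum from 1798 to 2850 CPM.

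The levels of the ferritin genes also carry a limit of the read mapping, since both have processed pseudogenes and the deposited values count only reads that map to a single place. Of the 81-base stretches of the canonical *FTH1* mRNA, 30.6% occur a second time, exactly, elsewhere in GRCh37, on 10 chromosomes, against 9.48% for *FTL*, 0.355% for *NCOA4* and 0.0% for the other 7 members. *FTH1P3*, an *FTH1* pseudogene, held 3.56% to 4.18% as many reads as *FTH1* in each library. Not all other pseudogenes of *FTH1* were looked up. The levels of both genes are therefore uncertain, *FTH1* the more so, and the part of this in their differences was not tested.

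*NCOA4*, the receptor that carries ferritin to the lysosome for breakdown, ranged from 201 to 254 CPM and was called in none of the 7 comparisons with siCtrl or DMSO. Its lowest library was siATF4 Srf replicate 2 and its highest siY/T Srf replicate 1. The difference of siATF4 from siCtrl was 0.06 in DMSO and -0.16 in Sorafenib. These effects differed by -0.22 (limma interaction, adjusted p = 0.00914), which was -0.17 and not called without replicate 1 of siCtrl Srf.

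*SLC40A1*, ferroportin, the only known iron exporter of mammalian cells, was detected at 37 to 179 reads per library. In DMSO it stood at 1.1 and 1.33 CPM in siCtrl, at 2.07 and 2.41 CPM in siY/T and at 0.921 and 0.733 CPM in siATF4 cells. With Sorafenib it stood at 1.83 and 2.01 CPM, 3.83 and 4.09 CPM, and 0.891 and 1.28 CPM in the same order. The siY/T libraries were the highest within each medium, and the siATF4 Srf libraries overlapped those of siCtrl DMSO and of siATF4 DMSO. The loss of YAP/TAZ raised it, with 0.68 in DMSO (SE 0.139, limma adjusted p = 0.00101) and 0.88 in Sorafenib (limma adjusted p = 1.95e-04). The loss of ATF4 lowered it in Sorafenib, with -0.62 (limma adjusted p = 0.00127), and the difference was -0.37 in DMSO, not a call. Sorafenib raised it in siY/T cells, with 0.70 (limma adjusted p = 9.87e-04), and the difference was 0.50 in siCtrl and 0.25 in siATF4 cells.

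At this depth the *SLC40A1* calls rest on few reads and shift with the settings. The added 0.5 CPM also makes its log2 differences smaller than the ratios of its mean CPM would give. Against siCtrl these ratios were 1.84 with siY/T in DMSO, 2.06 with siY/T in Sorafenib and 0.68 with siATF4 in DMSO. For Sorafenib against DMSO in siCtrl cells the ratio was 1.58. The rise with siY/T in DMSO was 0.55 with a pseudocount of 1 and 0.47 after quantile normalization, and fell just short of the threshold without replicate 1 of siCtrl DMSO, at 0.58 after rounding. The fall with siATF4 in Sorafenib was -0.49 with a pseudocount of 1, -0.26 after quantile normalization, -0.44 without replicate 1 of siATF4 Srf and -0.57 without replicate 2 of siCtrl Srf, none of them calls. The difference with Sorafenib in siCtrl cells became a call at 0.63 in DESeq2 and with a pseudocount of 0.1, at 0.64 in edgeR and at 0.60 without replicate 2 of siCtrl DMSO, and that in siY/T cells was lost after quantile normalization, at 0.58 after rounding. The rise with siY/T in Sorafenib was called in every alternative that tested the gene.

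Both iron sensors were lowest in siATF4 cells. *IREB2*, iron regulatory protein 2, is degraded when iron is plentiful, and *ACO1* is iron regulatory protein 1, which turns into cytosolic aconitase when it holds an iron-sulfur cluster. In DMSO *IREB2* stood at 57.3 and 58.1 CPM in siCtrl, at 49.4 and 66.5 CPM in siY/T and at 35.5 and 34.5 CPM in siATF4 cells. With Sorafenib *IREB2* stood at 64 and 59.8 CPM, 79.4 and 71.9 CPM, and 36.7 and 33.8 CPM in the same order. All 4 siATF4 libraries lay below the other 8, and the siY/T DMSO libraries spread across both siCtrl groups. The loss of ATF4 lowered *IREB2*, with -0.71 in DMSO (SE 0.103, limma adjusted p = 3.97e-05) and -0.80 in Sorafenib (limma adjusted p = 1.04e-05). With siY/T the difference was -0.0077 in DMSO and 0.29 in Sorafenib, neither of them called, and Sorafenib gave 0.39 in siY/T cells, which was 0.61 and a call without replicate 2 of siY/T DMSO.

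*ACO1* stood at 67.2 and 70.5 CPM in siCtrl, at 63.3 and 57.7 CPM in siY/T and at 41.3 and 39.7 CPM in siATF4 cells in DMSO. With Sorafenib it stood at 58.7 and 56.4 CPM, 54.6 and 54.5 CPM, and 43.9 and 42 CPM in the same order. Again the 4 siATF4 libraries were the lowest of the 12. The loss of ATF4 lowered *ACO1* in DMSO, with -0.76 (SE 0.0547, limma adjusted p = 6.33e-08), and in Sorafenib the difference was -0.42 (limma adjusted p = 1.36e-05), under the fold threshold. The effects differed by 0.34 (limma interaction, adjusted p = 0.00362). With siY/T the differences were -0.19 and -0.075, neither of them called.

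*HMOX1*, heme oxygenase 1, which breaks heme down to iron, carbon monoxide and biliverdin, spanned the widest range of CPM of the members relative to its lowest group, a 7.94-fold range of group means. Its gene (Entrez 3162) spans 35776354 to 35790207 of chromosome 22. In DMSO it stood at 98.5 and 92.4 CPM in siCtrl, at 65.7 and 53 CPM in siY/T and at 440.3 and 387 CPM in siATF4 cells. With Sorafenib it stood at 89.9 and 95.7 CPM in siCtrl, at 55 and 49.2 CPM in siY/T and at 138 and 154 CPM in siATF4 cells. The siCtrl groups overlapped each other with and without Sorafenib, as did the siY/T groups, whereas the siATF4 groups lay above all others and far from each other.

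The loss of ATF4 raised *HMOX1* 4.33-fold in DMSO, a difference of 2.11 (SE 0.0944, 95% interval 1.90 to 2.31, limma adjusted p = 7.03e-10). In Sorafenib the rise was 1.57-fold, a difference of 0.65 (limma adjusted p = 3.44e-05), and 0.57 without replicate 2 of siATF4 Srf, which is not a call. The effects differed by -1.46 (95% interval -1.75 to -1.17, limma interaction, adjusted p = 5.65e-06), a call kept in all 23 alternatives. Sorafenib lowered *HMOX1* in siATF4 cells, with -1.50 (limma adjusted p = 8.86e-08), and gave -0.04 in siCtrl and -0.18 in siY/T cells, neither of them called. The loss of YAP/TAZ lowered *HMOX1*, with -0.69 in DMSO (limma adjusted p = 3.77e-05) and -0.83 in Sorafenib (limma adjusted p = 1.21e-05). The call in DMSO was lost without replicate 2 of siY/T DMSO, at -0.54. The effects of siY/T in Sorafenib and in DMSO differed by -0.14 (limma interaction, adjusted p = 0.478), with a 95% interval of -0.43 to 0.15. Without replicate 2 of siY/T DMSO this difference was -0.29 and called, as were those of *FTL*, -0.28, and *IREB2*, 0.51.

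Because *HMOX1* is also a gene of macrophages, the leukocyte markers are set beside it. Their summed level was 71.9 to 75.0 CPM in siATF4 DMSO and 61.3 to 62.1 CPM in siATF4 Srf cells, against 19.8 to 21.1 CPM in siCtrl DMSO and 22.8 to 23.3 CPM in siCtrl Srf cells. In siY/T cells, where *HMOX1* was lowest, the sum was 26.3 to 32.4 CPM in DMSO and 26.2 to 30.3 CPM in Sorafenib. Nearly all of it was *CD68*, a lysosomal protein abundant in macrophages, which was at 19.8 CPM or more in every library of this cell line. *PTPRC*, the general leukocyte marker, was at no more than 0.0379 CPM and *CD3E*, a T cell marker, at 0 in every library. Whether the differences of *CD68* and *HMOX1* are linked was not tested.

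**Figure D4:**
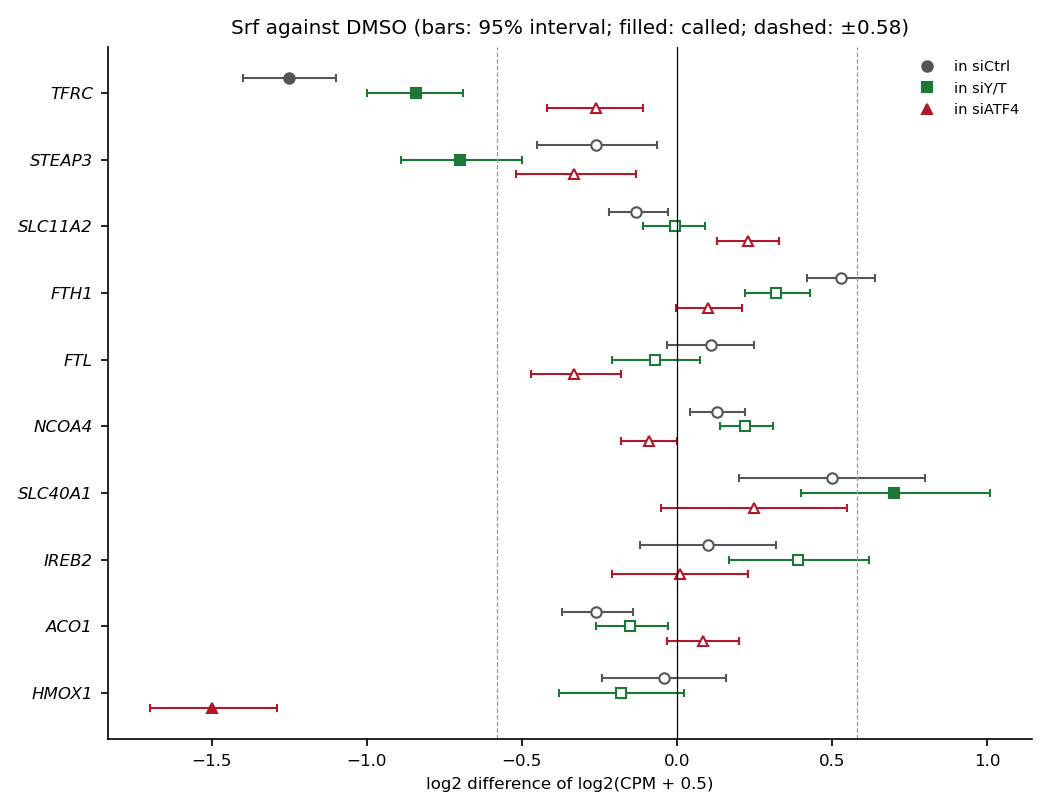
Log2 difference of each gene between Srf and DMSO (x axis) in siCtrl (circles), siY/T (squares) and siATF4 cells (triangles). Bars are 95% intervals, filled points are calls and dashed lines mark ±0.58. TFRC lies at -1.25, -0.84 and -0.26 in siCtrl, siY/T and siATF4 cells, the last not a call, and HMOX1 shows a call only in siATF4 cells, at -1.50.

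Read by comparison, the counts of members called stood as follows beside the share of all genes tested. With siY/T in DMSO 2 members were lowered, *TFRC* and *HMOX1*, and 1 raised, *SLC40A1*, where 3.61% of all genes were lowered and 11.0% raised. With siY/T in Sorafenib 3 were lowered, *TFRC*, *STEAP3* and *HMOX1*, and 1 raised, *SLC40A1*, against 3.84% and 6.11% of all genes. The median difference of the 10 members was -0.15 and -0.031 in these comparisons, and that of all genes 0.069 and 0.052. The share of members lowered was above that of all genes, and the share raised was near it. The members were chosen with earlier results of these data known, so this is a description and not a test.

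With siATF4 in DMSO 2 members were lowered, *IREB2* and *ACO1*, and 1 raised, *HMOX1*, where 14.1% of all genes were lowered and 8.57% raised, which is near the background in both directions. With siATF4 in Sorafenib 3 were lowered, *FTH1*, *SLC40A1* and *IREB2*, and 2 raised, *TFRC* and *HMOX1*, against 18.7% and 10.3% of all genes. The median of the members was -0.12 and -0.026, and that of all genes -0.0013 and -0.0082. Sorafenib lowered 1 member in siCtrl cells, *TFRC*, and raised 0, where 5.15% of all genes were lowered and 12.3% raised. In siY/T cells it lowered *TFRC* and *STEAP3* and raised *SLC40A1*, against 4.14% and 5.83% of all genes, and in siATF4 cells it lowered *HMOX1* alone, against 2.95% lowered and 5.68% raised. These shares of all genes depend on the scaling of the libraries. Of all calls, 24.7% were lowered with siY/T in DMSO, 64.6% with siATF4 in Sorafenib, and 29.5%, 41.5% and 34.2% with Sorafenib in siCtrl, siY/T and siATF4 cells, and after quantile normalization 43.0%, 51.5%, 47.7%, 53.1% and 45.3%. With DESeq2 the share for siY/T in DMSO was 35.8%.

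The depletions were also set against each other directly, although siATF4 lowered *WWTR1* in DMSO and siY/T lowered *ATF4*, most in Sorafenib, as given above. In DMSO siATF4 cells had more *HMOX1* than siY/T cells, by 2.80 (limma adjusted p = 1.59e-11), more *FTL*, by 0.93, *TFRC*, by 0.78, and *STEAP3*, by 0.67, and less *SLC40A1*, by -1.05, and *IREB2*, by -0.70. These are 4 members raised and 2 lowered, where 13.0% of all genes were raised and 22.7% lowered. In Sorafenib the same 4 were higher, *HMOX1* by 1.48, *TFRC* by 1.36, *STEAP3* by 1.04 and *FTL* by 0.67, and *SLC40A1*, *IREB2* and *FTH1* were lower, by -1.50, -1.09 and -0.72, against 14.8% raised and 23.7% lowered of all genes. Without replicate 2 of siY/T DMSO the DMSO values of *STEAP3* and *IREB2* were 0.53 and -0.49 and were not called, while *FTH1* and *ACO1* became calls at -0.58 and -0.64. *ACO1* was also a call without replicate 1 of siATF4 DMSO, at -0.60, and the Sorafenib value of *FTL* was lost after quantile normalization, at 0.58 after rounding. Of all calls in these comparisons 63.7% and 61.5% were lowered, and 48.4% and 48.5% after quantile normalization, which moved the median of all genes by 0.12.

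The interaction with Sorafenib was called for 3 members with siY/T, where 22.0% of all genes were called, and for 7 members with siATF4, where 41.1% of all genes were called. With siY/T they were *TFRC*, *STEAP3* and *FTH1*. With siATF4 they were *TFRC*, *SLC11A2*, *FTH1*, *FTL*, *NCOA4*, *ACO1* and *HMOX1*, of which *TFRC* and *HMOX1* alone differed by at least 0.58.

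Other genes of iron and heme handling were taken from lists written from general knowledge. The first list holds genes of iron entry, export and systemic regulation, of which 15 of 26 were tested and 11 were under 1 CPM in every library. With siY/T 2 of the 15 were raised and 0 lowered in DMSO, where 11.0% of all genes were raised and 3.61% lowered, and 1, *BMP6*, was raised and 0 lowered in Sorafenib, against 6.11% and 3.84%. With siATF4 3 were raised and 3 lowered in DMSO, against 8.57% and 14.1% of all genes, and 1 raised and 4 lowered in Sorafenib, against 10.3% and 18.7%. The lists that follow are read against the same shares. *LRP1*, an endocytic receptor that also takes up heme bound to hemopexin, stood at 156 and 147 CPM in siCtrl, at 295 and 314 CPM in siY/T and at 46.8 and 40.4 CPM in siATF4 cells in DMSO. Its difference was 1.00 with siY/T (limma adjusted p = 4.11e-08) and -1.79 with siATF4 (limma adjusted p = 8.24e-11), and Sorafenib raised it in siCtrl cells by 1.32, to 372 and 386 CPM. *HFE*, which binds the transferrin receptor and is mutated in hemochromatosis, differed in the same directions, from 24.7 and 25.7 CPM in siCtrl to 51 and 47.8 CPM in siY/T and 9.77 and 10.1 CPM in siATF4 cells in DMSO. The differences of *HFE* were 0.96 and -1.30, both calls. In Sorafenib the siY/T differences of *LRP1* and *HFE* were 0.41 and 0.55, neither of them called. Those of siATF4 were -1.82 and -1.46, both calls. For *LRP1* the siY/T effects in Sorafenib and in DMSO differed by -0.59 (limma interaction, adjusted p = 7.96e-04). For *HFE* they differed by -0.41 (limma interaction, adjusted p = 0.00433). *MELTF*, a transferrin relative on the cell surface, fell with siATF4 by -0.80 in DMSO and by -1.66 in Sorafenib.

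Of 11 heme synthesis genes 10 were tested, and *ALAS2*, the erythroid first enzyme, was under 1 CPM. None of the 10 was called with siY/T, and 2 were lowered with siATF4 in DMSO and in Sorafenib, *UROS* and *ALAD*, which make uroporphyrinogen III and porphobilinogen. *UROS* stood at 27.9 and 26.6 CPM in siCtrl and at 14.6 and 14.7 CPM in siATF4 cells in DMSO, a difference of -0.87 (limma adjusted p = 4.64e-08), and its difference in Sorafenib was -1.42. *ALAD* differed by -0.58 and -0.65, and Sorafenib raised it in siCtrl cells by 0.68. The median of the list with siATF4 was 0.012 in DMSO and -0.08 in Sorafenib, against -0.0013 and -0.0082 for all genes.

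Of 14 genes of heme transport and breakdown 11 were tested. With siY/T 0 were called in DMSO and 1 in Sorafenib, *FLVCR2*, a heme and choline transporter, which stood at 12.2 and 11.6 CPM in siCtrl and at 5.22 and 5.1 CPM in siY/T cells, a difference of -1.13 (limma adjusted p = 1.17e-06). Sorafenib raised *FLVCR2* in siCtrl cells by 1.05, from 5.59 and 5.39 CPM. With siATF4 in DMSO 1 gene of the list was raised and 1 lowered. The latter was *BLVRA*, which turns biliverdin, the product of *HMOX1*, into bilirubin, and it stood at 45.4 and 46.8 CPM in siCtrl and at 28.2 and 29.2 CPM in siATF4 cells, a difference of -0.68. In Sorafenib 2 were lowered, among them *SLC46A1*, a folate and heme importer, by -0.59.

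All 24 genes of iron-sulfur cluster assembly were tested. *HSPA9*, the mitochondrial chaperone of the pathway, fell with siY/T in DMSO from 912 and 930.1 to 569 and 558 CPM, a difference of -0.71 (limma adjusted p = 1.12e-08), and *FDXR*, which passes electrons to ferredoxin, rose by 0.77. *FDXR* fell with siATF4 in Sorafenib by -1.11, the only gene of the list lowered there. The list median with siATF4 in Sorafenib was 0.28 and that of all genes -0.0082. Of 4 other mRNAs known for an iron responsive element, *EPAS1*, hypoxia inducible factor 2 alpha, was lowered by both depletions in Sorafenib, from 14.9 and 16.2 CPM to 8.77 and 6.48 CPM with siY/T (limma adjusted p = 5.08e-05), and to 9.39 and 9.27 CPM with siATF4 (limma adjusted p = 3.37e-04).

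**Figure D5:**
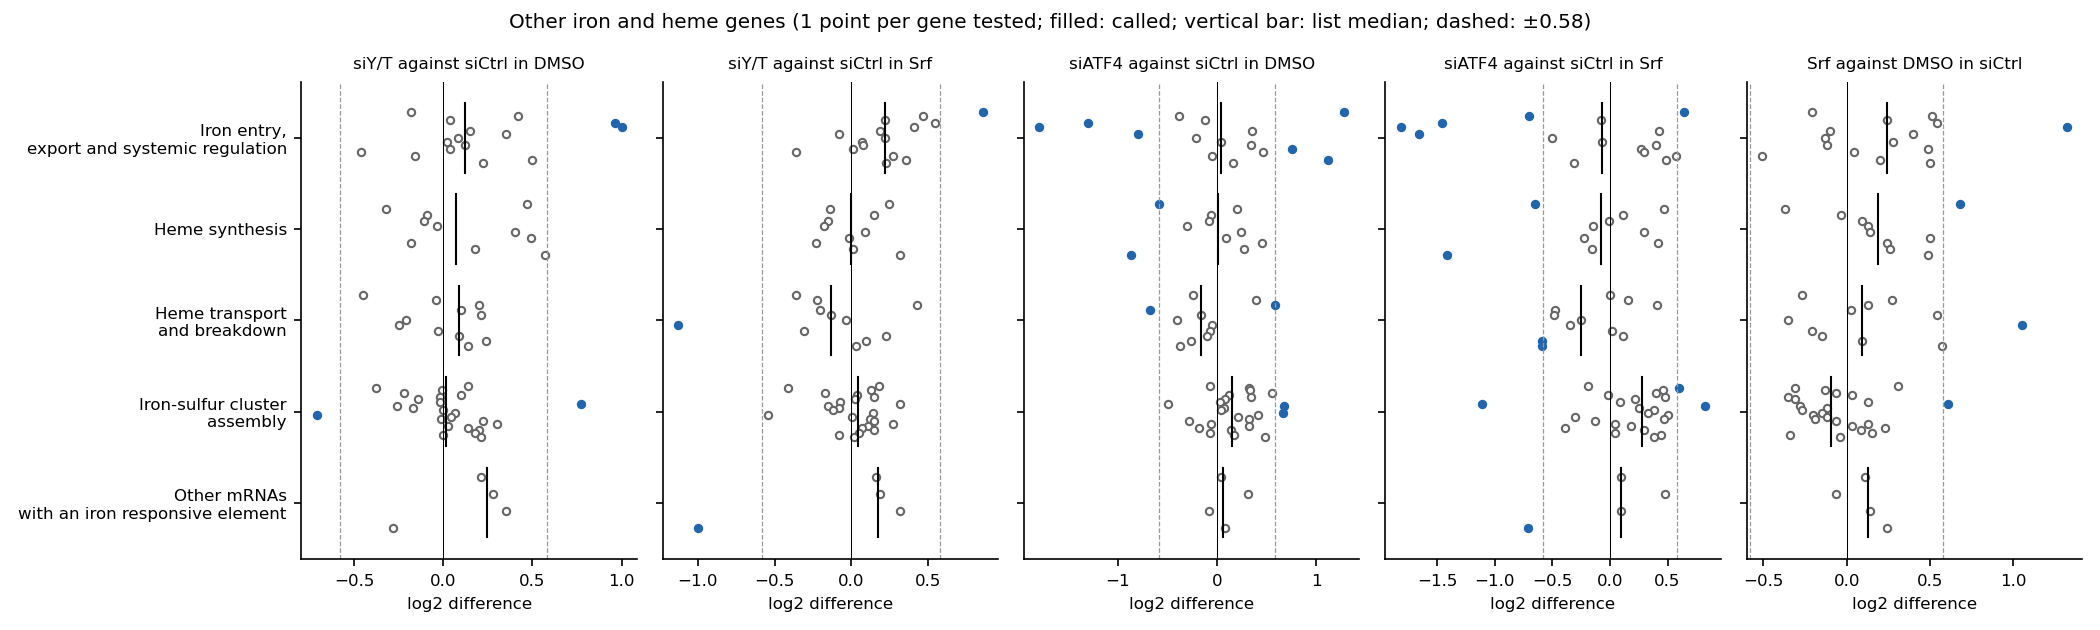
Log2 differences (x axis) of the tested genes of 5 lists (y axis), 1 point per gene, in the 4 comparisons of a depletion with siCtrl and in Srf against DMSO in siCtrl cells. Filled points are calls, vertical bars are list medians and dashed lines mark ±0.58. LRP1 is the point farthest to the left with siATF4, at -1.79 and -1.82, and the point farthest to the right with siY/T in DMSO, at 1.00.

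Genes whose pattern over the 12 libraries was most like that of a member were found by Pearson's r of log2(CPM + 0.5) among the 11143 genes whose mean reached 5 CPM, as a description. All points share the same libraries and groups. *TFRC* was followed most closely by *HIGD1A* and *CCT5* (r = 0.984 for both) and *PPP2R1B* (r = 0.983), all highest in siCtrl DMSO and lowest in siY/T Srf cells. *HMOX1* was followed by *ST6GALNAC4* (r = 0.988), *NSMF* and *ZMIZ2* (r = 0.983 for both), and *FTH1* by *PIK3CD-AS2* (r = 0.992), *GOLGA2P10* (r = 0.991) and *CIMAP3* (r = 0.990). *STEAP3* was followed by *DRAP1* (r = 0.993), *ANXA2* (r = 0.977) and *RUVBL2* (r = 0.973), highest in siATF4 DMSO and lowest in siY/T Srf cells.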

How the data were processed

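RNA of 12 libraries of HLE cells was sequenced after poly(A) enrichment as single-end reads. The authors mapped reads to hg19 with STAR, kept unique hits, counted them over RefSeq mRNA exons with QuasR and deposited them as CPM in 1 table. The library kit was stranded, but the strand setting of the counting is not given in the sources used here, and the study's text gives another Sorafenib dose and more replicates than the labels. All CPM values were whole multiples of 1 read within 0.001 read, so whole reads were recovered in 100% of them, and 0 columns were unmapped. Symbols were matched through RefSeq (26111 identifiers named).

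Differences were fitted with limma 3.58.1 (trend) in R 4.3.3 on log2(CPM + 0.5), with 1 coefficient per group and all 12 libraries, at the thresholds of the study's methods, and p-values were adjusted by Benjamini-Hochberg over 13515 genes. edgeR 4.0.16 and DESeq2 1.42.0 on recovered reads, other pseudocounts, filters, scalings, a replicate block, only the groups compared and leaving out each library were alternatives. The steps were tested on simulated reads. The members, the lists and the rule for named genes (the members, up to 3 genes per list with the largest called change, and the 3 genes most like each of 4 members) were chosen with earlier results of these data known. A gene that this rule names is not reported here. Positions came from GENCODE on GRCh37, which is hg19.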

Additional observations from a re-analysis of the deposited data

Results flagged for a closer look

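The effects of a depletion were compared between Sorafenib and DMSO by limma's interaction term, at a Benjamini-Hochberg adjusted p under 0.05 over all genes tested. They differed for 7 of 10 members with siATF4 and for 3 of 10 with siY/T. With siATF4 the difference, Sorafenib minus DMSO on the log2 scale, was 0.99 for *TFRC*, 0.36 for *SLC11A2* and 0.34 for *ACO1*, and -0.43 for *FTH1*, -0.44 for *FTL*, -0.22 for *NCOA4* and -1.46 for *HMOX1*. With siY/T it was 0.41 for *TFRC*, -0.44 for *STEAP3* and -0.21 for *FTH1*. Of all genes tested, 41.1% and 22.0% passed the same threshold with siATF4 and siY/T.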

How the results depend on the processing

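Of 2519 values of single members under the alternatives, 2453 stayed on the same side of the threshold, 48 lost their call, 18 gained one and 0 changed direction among called values. Leaving out a library of a group outside a comparison cannot move its log2 difference, so part of this agreement was fixed in advance. The count of members called with Sorafenib in siCtrl cells was 1, and 2 in DESeq2, in edgeR, with a pseudocount of 0.1 and without replicate 2 of siCtrl DMSO, the second being *SLC40A1*, and it ranged from 1 to 2 over the left-out libraries. The siY/T interaction was called for 3 members, for 1 with no filter or only the groups compared and for 0 with the fold threshold added, and for 0 to 6 over the left-out libraries, with 0 without replicate 2 of siCtrl DMSO and 6 without replicate 2 of siY/T DMSO. The siATF4 interaction was called for 7 members, for 2 with the fold threshold added, which here takes away 5 smaller differences, and for 6 to 7 over the left-out libraries. Other causes were not tested. With 1 library of a group left out, the remaining one is assumed to vary like the other groups. *SLC40A1* was not tested with a filter at 5 CPM.

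Samples with the same number leaned together within a medium, with correlations of 0.0358 to 0.193 between the 3 DMSO groups and 0.1 to 0.164 between the 3 Sorafenib groups, but not across media, where they ran from -0.282 to 0.0054. Over the 15 pairs of groups 4 were over 0.1, and the main fit did not take the numbers to pair the samples. A pairing within each medium was not fitted. The replicate block has 1 term for both media, so it cannot take up a lean that differs between them. The replicate block gave 2 members for the siY/T interaction in place of 3, without *FTH1*, and left every other count of members called as it was: 3, 4, 3 and 5 for the depletions, 1, 3 and 1 for Sorafenib, 6 and 7 for the depletions against each other, and 7 for the siATF4 interaction.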
